A study of Mus musculus with 2 samples.

Results

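Myc, the gene of a transcription factor that drives growth and ribosome production, was examined together with the long gene-poor stretch downstream of it that carries its known blood enhancers. The Myc gene (RefSeq gene 17869) lies on mouse chromosome 15 from 61985341 to 61990361 in mm10. Its locus was taken from 500 kb before the gene start to 2 Mb past the gene end, chromosome 15 from 61485341 to 63990361. It held 29 of the 31843 accessible regions of the control library and 3 of the 13012 of the H1C library.

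ATAC-seq, in which exposed DNA is cut and tagged by a transposase, had been used to map open chromatin. The cells were hematopoietic stem cells of the phenotype CD48-CD150+LSK from bone marrow of wild-type C57BL/6J mice, and the labels give no age. One library came from cells carrying the empty pMSCV retrovirus (control) and the other from cells carrying MSCV-H1C, labelled H1C overexpression. H1C is a linker histone, which binds nucleosomes at the entry and exit of DNA. Both groups were therefore wild-type and transduced, about 1000 cells went into a library, and the sources used here do not say how many mice were pooled or whether transduced cells were re-sorted. Each group held 1 library, so no difference has a replicate check, and no test between the groups was possible.

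MYC pairs with its partner MAX and binds DNA at the E-box, while the MXD proteins and MNT compete for MAX and repress the same genes. In blood stem cells MYC is kept in a narrow range, because it pushes cells from dormancy and niche attachment into division and differentiation. The gene itself sits next to the long noncoding RNA gene Pvt1. Much of its control in stem and progenitor cells is known to come from a cluster of enhancers about 1.7 Mb downstream, next to the gasdermin C genes. In leukemia the same cluster is known to be occupied by blood transcription factors and the SWI/SNF remodelling complex.

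In control the locus was open at many weak sites, and in H1C almost all of them went uncalled. Of the 29 control regions 2 (6.90%, exact Clopper-Pearson 95% interval 0.846 to 22.8) overlapped an H1C region by at least 1 bp. Over all control regions the share was 34.1%, and over those outside protein-coding gene ends (more than 1 kb from either end) it was 20.7%. Intervals cover counting error only. The covered length was 9.13 kb in control and 0.818 kb in H1C. The kept sites were 1 in the body of Myc and 1 in the body of Pvt1, and H1C added 1 region of its own. The distant enhancer cluster had 7 regions in control and 0 in H1C.

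**Figure D1:**
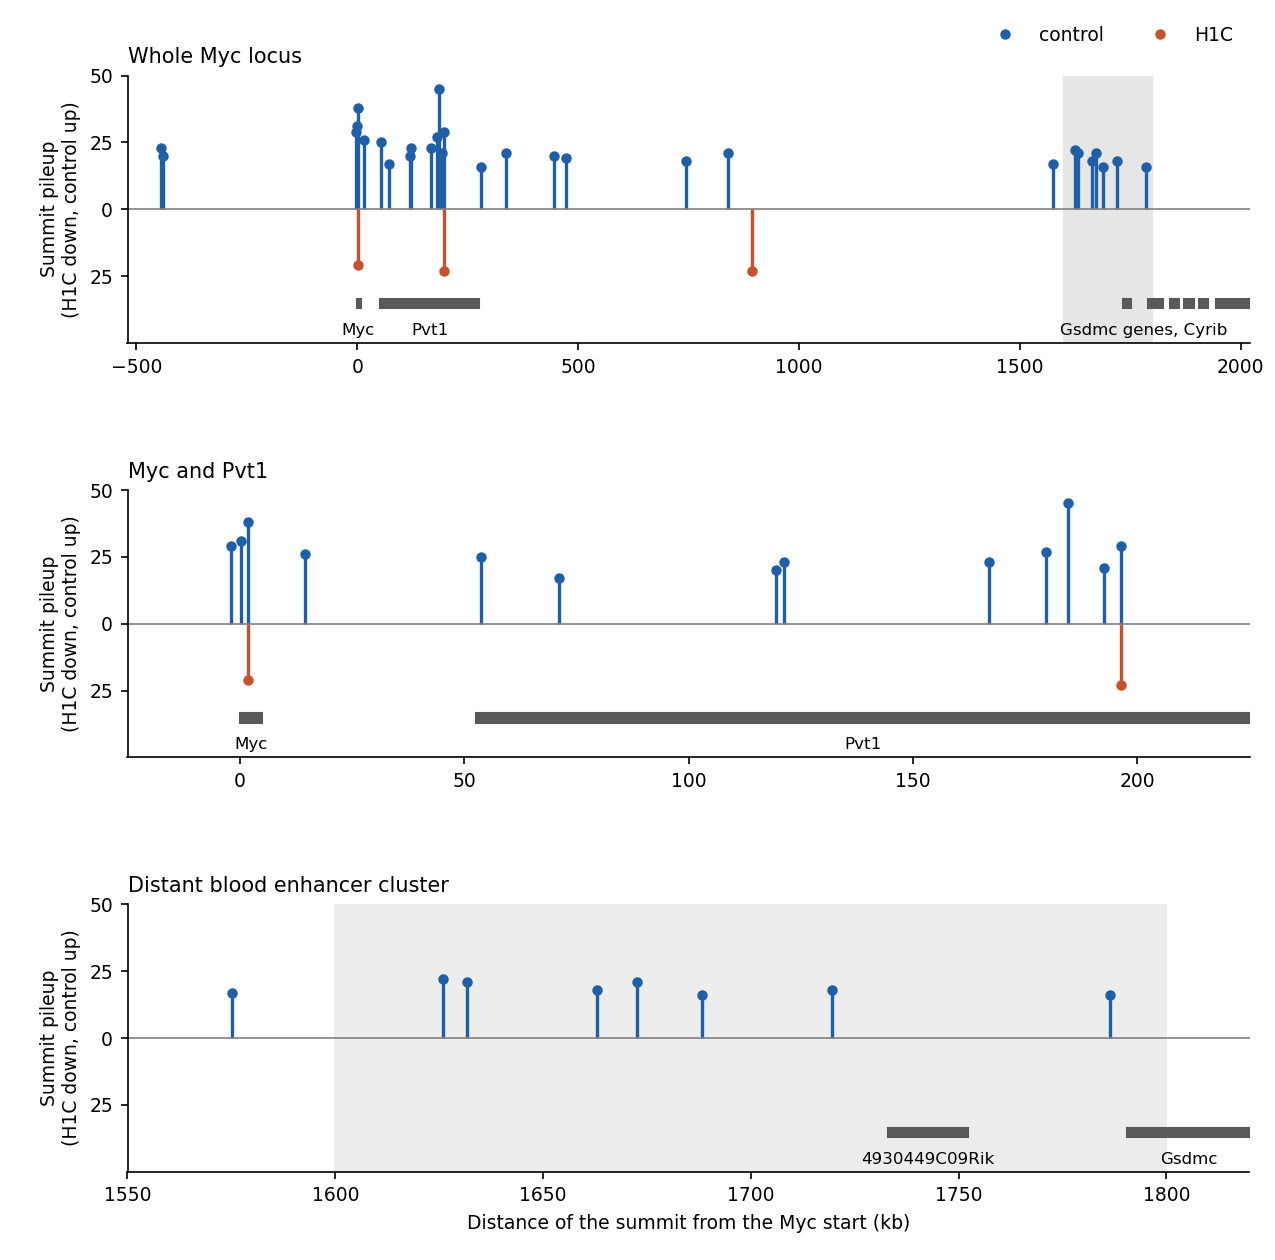
Summit pileup (reads or fragments stacked at the highest point of a region, y axis, control upward and H1C downward) of every region called in the Myc locus against distance from the Myc start in kb. The panels show the whole locus, Myc with Pvt1, and the distant cluster (shaded, 1.6 to 1.8 Mb); grey bars are genes. Control has 29 stems and H1C has 3, none of them in the shaded window.

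At the gene itself control showed 3 regions, with summits from 1867 bp before to 1846 bp after the gene start, and H1C showed 1. The region at the Myc gene end ran from 61985459 to 61985679, with its summit 196 bp past the gene start. In control its summit pileup, the number of reads or fragments stacked there as solved from the deposited fold and p, was 31. Its fold over local background was 3.24 and its −log10 q was 6.03. No H1C region lay within 1 kb of either end of Myc, so that the planned gene-end ratio has no value. Control had such a gene-end region at 10264 protein-coding genes, of which 20.7% had a lower pileup than Myc and 71.0% were kept in H1C. Of the 779 genes with a control pileup of 29 to 33, 303 (38.9%, 95% interval 35.5 to 42.4) kept one. A gene end of like pileup was thus more often uncalled than called in H1C. These genes were not matched for local background, with which the threshold for a call rises. It was 8.88 at the Myc gene end in control.

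Just upstream a control region from 61983401 to 61983625 had a pileup of 29 and a fold of 2.94, and H1C had none. The strongest of the 3 lay inside the gene, from 61986821 to 61987385. It was called in both libraries. Its pileup was 38 in control and 21 in H1C, and its folds were 4.10 and 3.01. The summits lay 24 bp apart, and the H1C region, 200 bp wide, fell wholly inside the 565 bp of the control region. Whether these sites are exonic or intronic was not examined, since the annotation used gives only gene spans.

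To compare pileups between the libraries, each ratio was divided by the ratio of the genome-wide backgrounds (4.40 in H1C, 3.99 in control, a ratio of 1.1). For the region inside Myc the H1C to control ratio was 0.501 (exact conditional binomial 95% interval 0.279 to 0.875), a log2 ratio of -1.0 (-1.84 to -0.19). When scaled instead by the local background at shared regions it was -0.65 (-1.50 to 0.15), an interval that includes no change. The value lay below the lower quartile of regions of its strength, and its interval spanned both of their quartiles. Shared regions outside gene ends with a control pileup of 35 to 41 had a median of -0.77 (quartiles -0.95 and -0.56, 553 regions), and all shared regions at a control pileup of at least 60 had -0.92. A ratio exists only where H1C also had a region, so larger drops are missing from such medians, more so at lower control pileup.

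The broader surroundings of Myc were also less covered in H1C. The local background, counted in a wider window around a summit, was 8.52 at the region inside Myc in control and 6.32 in H1C. These are 2.14 and 1.44 times the genome background of their library. Scaled for depth the H1C to control ratio of local background was 0.672, below the lower quartile of 0.725 over 10823 shared regions, whose median was 0.803. At the shared Pvt1 region the same ratio was 0.839, inside the quartiles. The wider window takes in reads of the regions themselves, so this is not separate from the loss of regions.

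Between Myc and Pvt1 a single control region, from 61999594 to 61999963 and 9.23 kb past the Myc end, had a pileup of 26 and a fold of 5.41. It had no H1C counterpart. Its local background was at the genome level, so its fold was above that of the stronger sites inside Myc.

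Pvt1, a noncoding RNA gene from 62037986 to 62260215 whose promoter and introns are known to hold regulatory elements of Myc, carried 9 control regions and 1 in H1C. None lay within 1 kb of either end of Pvt1. The first, from 62039046 to 62039264, was 1060 bp inside the gene and had a pileup of 25. The next, from 62056472 to 62056709, had a pileup of 17. In the middle of the gene, 3 regions 119.4, 121.3 and 167.0 kb past the Myc start had pileups of 20, 23 and 23.

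Inside Pvt1, 179.6 to 196.4 kb past the Myc start, 4 control regions fell within 17.2 kb. From the side of Myc their pileups were 27, 45, 21 and 29. The second of them, from 62169368 to 62170054, was the strongest and widest region of the locus, with a fold of 5.74, a −log10 q of 18.50 and a width of 687 bp. It had no H1C region. Among 1009 control regions outside gene ends with a pileup of 42 to 48, 55.2% (95% interval 52.1 to 58.3) were called in H1C, so that either outcome was common at this strength.

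The last of the 4, from 62181475 to 62181933, was the other region that H1C shared. Its pileup was 29 in control and 23 in H1C, with folds of 4.53 and 3.87. The H1C region covered 86.1% of the control one, and the summits lay 141 bp apart. Scaled for depth, the log2 ratio of -0.48 had an interval from -1.33 to 0.36 and so did not exceed counting error. Shared regions outside gene ends with a control pileup of 26 to 32 had a median of -0.50 (quartiles -0.68 and -0.30). Regions that fell below the H1C threshold are missing from that median too. The weaker neighbour was therefore called in H1C while the stronger one 11.9 kb away was not.

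Past Pvt1 the control regions thinned out. From the end of Pvt1 to 1 Mb past the Myc start there were 6, with pileups of 16 to 21, at 280.3 to 839.0 kb. None was called in H1C. Upstream of Myc the locus had 2 further control regions 444.4 and 438.6 kb before the gene start, with pileups of 23 and 20. They were also uncalled in H1C, and the 437 kb from there to the site just before Myc held no region in either library.

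The region that H1C had alone, from 62878719 to 62878941, lay 893.5 kb past the Myc start and 54.2 kb from the nearest control region. It had a pileup of 23, a fold of 4.44 and a −log10 q of 6.88, and its nearest annotated gene was the noncoding Gm30113, 75.3 kb away. In strength it lay just above the upper quartile of its kind, since the 1949 regions called in H1C alone had a median pileup of 19 with quartiles of 18 and 22. Over the whole H1C list 85.0% of regions overlapped a control region, against 2 of 3 here. It lay within the longest stretch of the locus without a control region, 736 kb from 0.839 to 1.57 Mb past the Myc start.

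The distant blood enhancer cluster appeared in control as a return of weak sites after that gap, and its density was not compared with that of other stretches. The window of 1.6 to 1.8 Mb past the Myc start held 7 control regions over 161 kb. The summits lay at 1.626, 1.632, 1.663, 1.673, 1.688, 1.720 and 1.786 Mb. Their pileups, in the same order, were 22, 21, 18, 21, 16, 18 and 16 and so spanned no more than 6. An eighth region, at 1.575 Mb with a pileup of 17, lay just outside the window.

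The strongest cluster region ran from 63611106 to 63611500, with a fold of 4.55 and a −log10 q of 7.27. The next, from 63616898 to 63617111, lay 5.40 kb from it with a fold of 4.41. A pair farther on, from 63648063 to 63648602 and from 63657935 to 63658220, had folds of 3.45 and 3.62. The first of that pair was the widest of the cluster at 540 bp. These 4 sites flank the pseudogene Gm5473 without touching it. The regions from 63673509 to 63673708 and from 63704756 to 63705019 had folds of 3.41 and 3.81. The last, from 63771666 to 63771865, had a fold of 3.41 and lay 4.11 kb from Gsdmc, a gasdermin gene of epithelial cells.

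No gene start or end in the cluster window was open. The noncoding gene 4930449C09Rik, from 63718348 to 63737636, and Gsdmc had no region within 1 kb of an end or inside the gene in either library. The same held for Gsdmc2, Gsdmc3 and Gsdmc4, which follow in the locus. Cyrib, a regulator of actin that begins in the locus and runs past it, had no region in the part inside the locus. Beyond 1.8 Mb the locus held 0 regions in both libraries.

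H1C had 0 of the 7 cluster regions (95% interval 0 to 41% kept). All of them were weak, and weak sites were seldom called in H1C anywhere. Outside the locus and away from gene ends, the share of control regions kept was 6.96% for pileups up to 16, 9.86% at 17 or 18, and 11.1% at 21 to 25. At those shares 0.67 of the 7 would be kept, so that 0 is near what the rest of the genome gave at like strength. For the 29 regions of the locus the same shares gave 3.91 kept, or 13.5%, against the 2 seen.

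**Figure D2:**
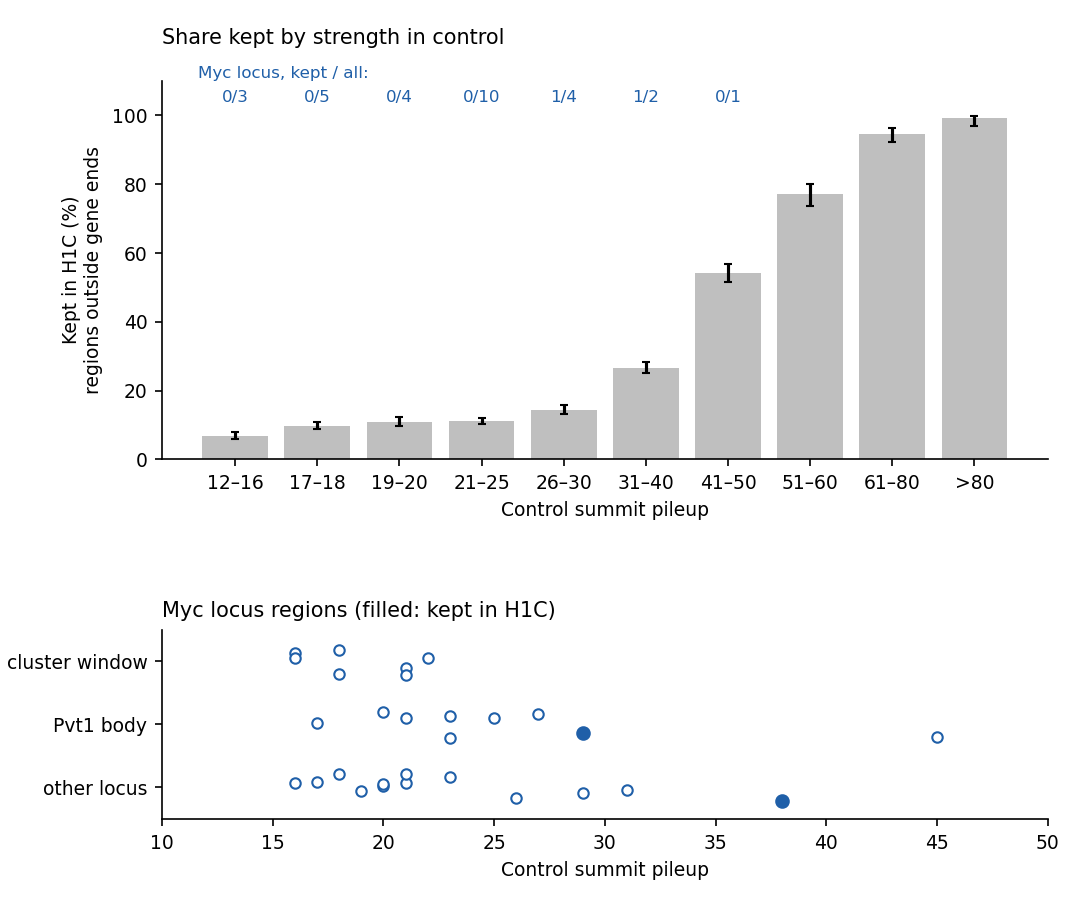
Top, percent of control regions outside gene ends and outside the Myc locus that were called in H1C (bars, exact 95% intervals) by control summit pileup, with the kept and total number of Myc locus regions above each bar. Bottom, control pileup of the 29 locus regions (filled, kept in H1C; vertical scatter has no meaning): 12 lie at 20 or below, and the filled points are at 38 and 29.

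What a missing H1C call allows was also worked out. At the genome background the weakest H1C region had a pileup of 14, and the threshold rises with local background. If a site had the same accessibility in both libraries, its H1C pileup would be the control value times 1.1, and all 29 locus regions would then reach the H1C threshold at their summit. If a site fell as the strong regions did, its control value would be multiplied by 0.583, and 2 of the 29 would reach it. Those are the site between Myc and Pvt1, with 15.2 against 15 needed, and the strongest Pvt1 site, with 26.2 against 21. Neither was called.

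For the 27 uncalled regions the highest log2 ratio that a pileup just under the threshold permits ran from -1.31 to -0.41, with a median of -0.66. In the cluster it ran from -0.79 to -0.41. Counting error covers much of this gap. In 21 of the 27 the threshold lay less than 2 counting SDs (the square root of the value at equal accessibility) below that value, and so it did in all 7 cluster regions. The strongest Pvt1 site had the widest gap, 4.07 SDs. This SD leaves out the counting error of the control pileup from which that value was worked out, so the gaps in SDs are overstated. The sites were also listed because control called them. Their control pileups, and the H1C values worked out from them, may therefore be too high. A loss at any single cluster site was thus not detectable at this depth. These limits assume that the local background scaled with depth. At shared regions it fell short of that, with a median depth-scaled ratio of 0.803. Thresholds above the genome background may therefore be set too high. The limits concern the summit alone, and no region of either list was under 200 bp wide, so a summit above the threshold may still go uncalled.

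The Myc locus was set against fixed windows across the genome, some of which overlap it. It had more control regions than most gene-poor windows, and fewer H1C regions than most windows with a like number of control regions. With 6 protein-coding genes in 2.51 Mb it had 11.6 control regions per Mb and 1.20 per Mb in H1C. Of 368 windows of 2.5 Mb with 1 to 10 protein-coding genes, 91.8% had fewer control regions, with a median of 8. Their median in H1C was 3, equal to the number at Myc, and 43.8% had fewer. Among all 277 windows with 20 to 40 control regions, the median share kept was 30.6% (quartiles 25 and 38.5) and 0 windows had a share as low as that at Myc. In those windows the median number of H1C regions was 11, and 1 window had 3 or fewer. The fixed window over Myc kept 4 of its 28 control regions, and the next, over the distant cluster, kept 5 of 29. Both overlap the locus, so its rank below all windows depends on where its edges were set. A strong kept region inside Cyrib lies just past its far edge.

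The contrast was smaller once strength and gene ends were taken into account. When only regions outside gene ends were counted, 2 of 28 locus regions were kept (7.14%), against a median of 19.0% over 303 windows with 20 to 40 such regions, of which 15 had a share as low. Relative to the number given by like pileups, the locus had 0.55 and the windows a median of 0.983 (quartiles 0.763 and 1.24). On that measure 25 windows, 8.25%, were as low as Myc. With the edges used here, the place of the locus therefore went from below all windows to among the low ones. These windows are a description and not a test.

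**Figure D3:**
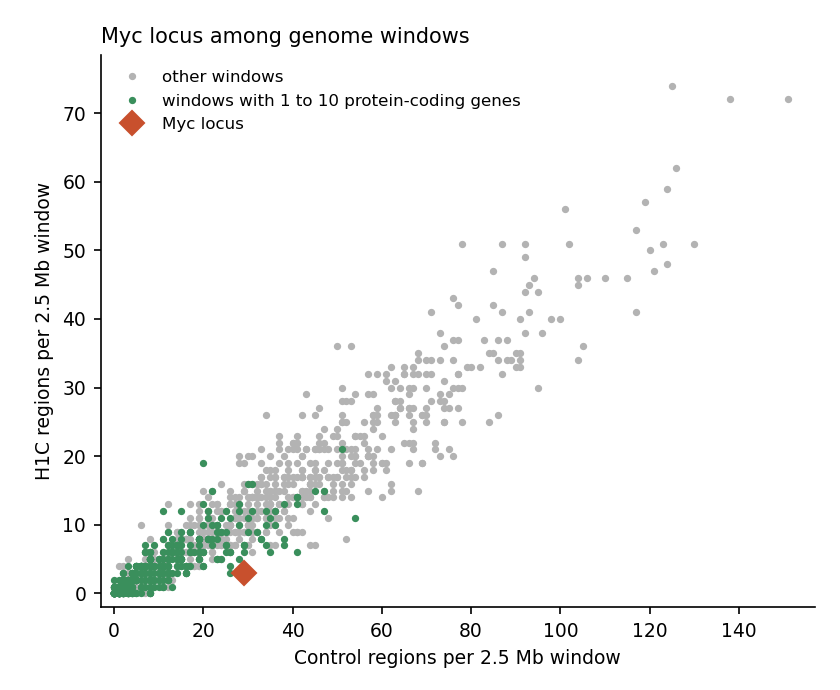
Number of H1C regions (y axis) against control regions (x axis) in 1042 windows of 2.5 Mb, green where a window holds 1 to 10 protein-coding genes, with the Myc locus as a diamond at 29 and 3. The diamond lies at the lower edge of the cloud.

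Genes of the MYC network were then compared at their ends (within 1 kb of either end of the gene). A gene-end region can thus lie at the far end of a gene, and a promoter inside the gene span is missed. All 30 listed genes matched the annotation. Of the 22 with a control region 16 were kept in H1C (72.7%, 95% interval 49.8 to 89.3), near the 71.0% of all protein-coding genes. Their median control pileup was 55, against 49 over all genes with a region. The 16 kept genes had a median log2 ratio of -0.87, from -1.18 to -0.30, beside -0.85 over all genes kept. All 16 lay below 0, as did 7234 of the 7288 kept genes in all.

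The MAX partners that oppose MYC ranged from the most open genes of the network to a gene with no region. Mxd4, a repressor that pairs with MAX, had the highest control pileup, 121, and 67 in H1C (log2 ratio -0.99, 95% interval -1.45 to -0.55). Mxd1, another such repressor, had 110 and 71. Of the others, named after their values were seen, Mnt had 85 and 46, Mxd3 had 51 and 30, Mga had 28 in control only, and Mxi1 had no region in either library. Ep400, an ATPase of a histone acetylation complex that MYC recruits, had 100 and 65. Max itself, named after its values were seen, had 90 and 63 (log2 ratio -0.66, -1.14 to -0.18). The Myc gene end had 31 in control, below all of these but Mga and Mxi1.

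Network genes with a gene-end region in control only were weaker, with a median control pileup of 34 against 81.5 for the kept ones. Besides Myc they included Mlx, a partner of the MONDO sugar-sensing factors, at 41, the acetyltransferase gene Kat5 at 38, and Zbtb17, which encodes MIZ1, through which MYC represses genes, at 37. The Kat5 region lay at the far end of the gene, and the control region over its promoter had 36. Mycl, a paralog of Myc, had a region in H1C only, with a pileup of 22. Mycn, the paralog that acts beside Myc in stem cells, had none in either library. The part of this difference in strength in which genes were kept was not tested.

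Target genes of MYC in ribosome production, translation and metabolism were mostly kept. Of 26 listed targets with a control region 23 (88.5%, 69.8 to 97.6) had one in H1C, an interval that includes the 71.0% of all protein-coding genes. Ldha, counted as having no gene-end region, had pileups of 61 and 23 over its promoter, which lies inside the gene span. The median log2 ratio of the kept targets was -0.83, from -1.56 to -0.61. Their median control pileup was 68.5, above that of all genes. Rrp9, for ribosomal RNA processing, had 112 and 73, the helicase gene Eif4a1 of translation initiation 108 and 56, and the nucleolin gene Ncl 101 and 65. The 3 targets in control only were Ccnd2, a G1 cyclin, at 50, Polr1b, a subunit of RNA polymerase I, at 44, and Tert, the telomerase reverse transcriptase, at 16.

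The promoters of 3 of these genes are shown because they hold the MYC and MAX binding motif and stayed called in both libraries. They are the 250 bases before the RefSeq start on GRCm38.p6, printed along the gene's strand, with each CACGTG in capitals. Mxd4 and Eif4a1 were the strongest such promoters of their lists, and Cdk4, a cell cycle kinase gene, held the most copies of the motif.

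Mxd4, chr5:34187711-34187960, minus strand, pileups of 121 and 67:
Mxd4: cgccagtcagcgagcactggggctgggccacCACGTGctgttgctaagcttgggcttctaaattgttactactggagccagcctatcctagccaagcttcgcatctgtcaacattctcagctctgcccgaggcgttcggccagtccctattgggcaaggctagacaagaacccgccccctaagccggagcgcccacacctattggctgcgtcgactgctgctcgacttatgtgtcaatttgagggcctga
Eif4a1, chr11:69672424-69672673, minus strand, pileups of 108 and 56:
Eif4a1: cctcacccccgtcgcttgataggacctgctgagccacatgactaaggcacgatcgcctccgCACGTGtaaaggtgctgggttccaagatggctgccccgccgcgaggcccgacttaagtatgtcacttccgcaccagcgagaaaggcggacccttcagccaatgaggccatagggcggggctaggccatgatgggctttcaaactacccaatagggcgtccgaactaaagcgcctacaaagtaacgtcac
Cdk4, chr10:127063285-127063534, plus strand, pileups of 81 and 48:
Cdk4: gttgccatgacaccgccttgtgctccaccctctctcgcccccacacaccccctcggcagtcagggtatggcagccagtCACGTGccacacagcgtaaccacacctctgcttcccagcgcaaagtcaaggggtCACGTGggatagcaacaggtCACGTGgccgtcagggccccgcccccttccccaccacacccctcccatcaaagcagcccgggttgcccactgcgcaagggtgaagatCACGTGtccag

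Mxd4 and Eif4a1 each had 1 copy, and Cdk4 had 4. The motif reads the same on both strands. Among targets with a promoter in the RefSeq table, 7 of 23 (30.4%, 13.2 to 52.9) held it in these 250 bases, and among network genes 6 of 26 (23.1%, 8.97 to 43.6). Over all 17492 protein-coding genes with a promoter in the table the share was 7.61%. Genes kept in H1C and genes with a region in control only held it at like shares, 10.4% (9.65 to 11.2) and 9.63% (8.45 to 10.9). Promoters with the motif were not all kept: those of Mlx and Kat5 had control regions with pileups of 41 and 36 and none in H1C. No promoter sequence of Myc was available, so its motif content was not examined. A match is a description of letters and does not show binding.

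Factors known to act at blood enhancers such as the Myc cluster were weaker at their gene ends in control than the network and target genes. Of 15 with a control gene-end region 7 (46.7%, 21.3 to 73.4) had one in H1C, and the interval includes the 71.0% of all genes. Their median control pileup was 35, below the 49 of all genes. Of the kept genes, Smarca4, the SWI/SNF ATPase, had 80 and 60, the coactivator gene Ep300 had 66 and 46, and Runx1, a factor that sets up blood stem cells, had 57 and 26. Of those in control only, Lyl1, a bHLH factor of blood stem cells, was the strongest at 65, followed by Cebpb, a myeloid and stress factor, at 38 and Gfi1b, a repressor in stem and erythroid cells, at 32.

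**Figure D4:**
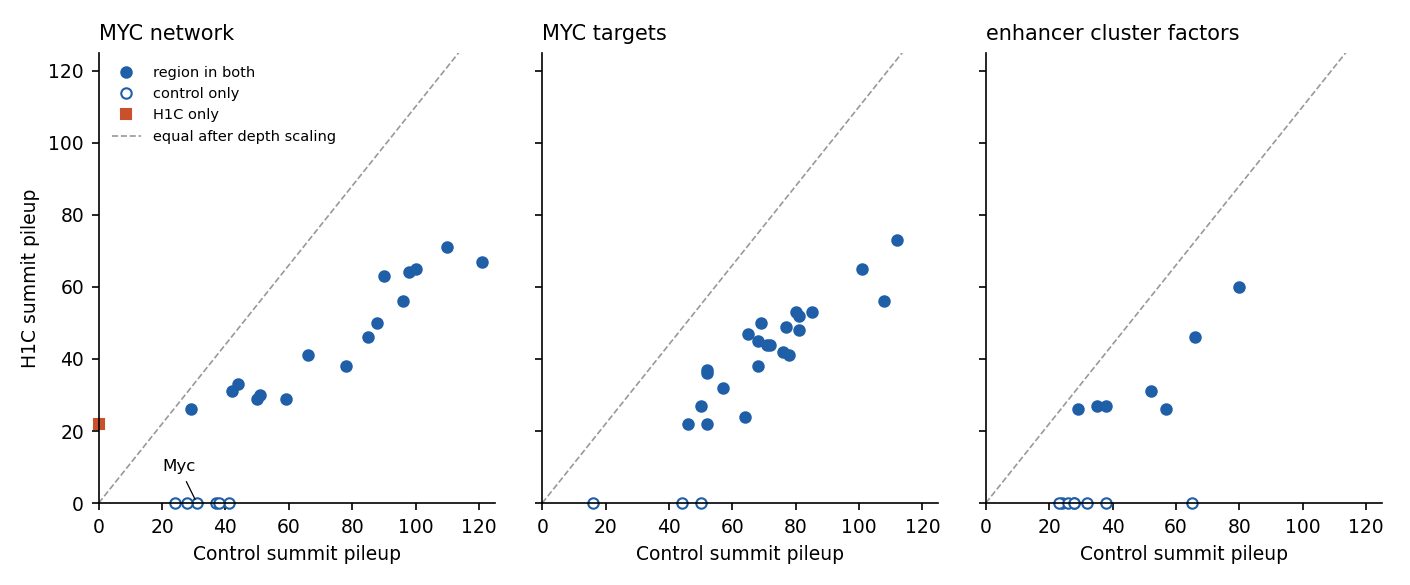
Strongest gene-end summit pileup in H1C (y axis) against control (x axis) for the MYC network, MYC targets and enhancer factors; filled points have a region in both libraries, and points on an axis have no region in the other library. The dashed line is equality after scaling by 1.1, and all filled points lie below it; Myc is among the open points, at 31.

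Genes whose strongest region over the gene and 1 kb either side gave the same pair of pileups as Myc, 38 and 21, numbered 10 of the 8980 other genes with a region in both libraries. Ordered by likeness of local background, the first were Prelid1 and Rab24, which share 1 region, then Mrpl4, Rbm43 and Ms4a1. The likeness rests on 2 libraries. Of the genes compared, 29.2% had a lower ratio than Myc.

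The labelled cell type was checked at gene ends. Of 12 stem cell genes 6 had a control region (Kit, Hlf, Ly6a, Meis1, Slamf1 and Ptprc, pileups of 18 to 32) and 0 of these 6 had one in H1C (95% interval 0 to 45.9%). Over all 21887 protein-coding genes 10264 had a control region, and 71.0% of those were kept. That share is not at like strength, since their median control pileup was 49 against 24 for the 6 stem cell genes. At pileups of 29 to 33 it was 38.9%, and no share was worked out for weaker gene ends. Of 6 genes of non-blood tissue 4 had a control region, with pileups of 14 to 20, of 7 lymphoid genes 5, of 6 myeloid genes 2 and of 6 erythroid and megakaryocyte genes 1. Of those 12 genes 1, Cd79a, had a region in H1C. Stem cell and other markers thus overlapped in strength in control, and gene-end accessibility did not separate them.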

How the data were processed

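Per the submitters' processing notes, the build was mm10 and the tools were MACS2, Picard, featureCounts, Bowtie2 2.2.9 and Trim Galore 0.4.4. Their roles and settings, duplicate removal and any shift to the cut site are not given in the sources used here, and either would alter pileups. The authors deposited 1 region list per library. In it the fold is the ratio of summit pileup to local background with 1 added to each, −log10 p and −log10 q are the caller's, and the deposited score is the whole part of 10 times −log10 q in 99.969% of control and 99.962% of H1C entries. These are the authors' values and describe regions within a list. The control list went down to a −log10 q of 1.31 and the H1C list to 1.34.

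The lists give no read totals. Pileup and local background were solved from fold and Poisson p, accepted within a relative tolerance of 0.0001 (32005 of 32005 control and 13155 of 13156 H1C entries), with the solver tested on simulated data. The lowest local background stood for depth. Touching entries on chromosomes 1 to 19, X and Y were merged. Shared means an overlap of at least 1 bp. Genes came from a RefSeq table of GRCm38.p6 with no strand or exons, and sequences of the locus regions were not used here.

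No p-value is given, since a group was 1 library. Members and lists were chosen with earlier results of these data known. Named were Myc, all regions near it or in the cluster, the strongest others, the top 3 kept and 3 control-only genes of each list, and the genes most like Myc. Likeness was taken over the gene span, and the windows, like-pileup shares, detection limits and motif counts were added, after the data had been seen. Software was scipy 1.17.1, pandas 2.3.3, numpy 2.4.6 and matplotlib 3.10.9 under Python 3.11.15.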

Additional observations from a re-analysis of the deposited data

How the results depend on the processing

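No paired analysis was possible because there was 1 library a group. For 11 results 25 alternatives were run. In 21 the value stayed inside its interval or spread, or within 1.5 times for a count, and in 4 it moved. A −log10 q of at least 5 left 18 locus regions and 2 cluster regions in control. A cluster window 100 kb wide about the 1.7 Mb point held 4. With lists of equal length by −log10 p, 3 control regions of the locus remained, of which 1 (33.3%) was kept, and no cluster region remained, so that its share has no value. Fewer regions entered each of these 4. The cluster had 0 H1C regions in all alternatives run. Only the wider window of 1.5 to 1.9 Mb could have added one, since the stricter threshold and the narrower window can only remove regions. No looser H1C threshold was tried. The share of the locus kept was 5.56% at the strict threshold and 3.45% with a reciprocal overlap of 50%, which left the Pvt1 region alone. The gene-end ratio of Myc could not be given, since H1C had no region within 1 kb, and the region inside the gene stood in for it. Weak regions set the limit here: 12 of the 29 control regions had a pileup of 20 or less, and 16 lay on the genome background.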

Other observations

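Just past the locus a larger share of control regions was kept, with an interval that overlaps the 0.846 to 22.8% of the locus. The 1 Mb that follows it, which holds the rest of Cyrib and Asap1, an ARF GTPase regulator, had 19 control and 5 H1C regions, and 5 of the 19 (26.3%, 95% interval 9.15 to 51.2) were kept. The strongest, inside Cyrib from 63997737 to 63998624 and 2.013 Mb past the Myc start, had a pileup of 68 in control and 48 in H1C. Others kept had 50 and 32, 36 and 28, 54 and 26, and 42 and 21. Their control pileups were above those of the cluster regions, 16 to 22, which is also where the rest of the genome kept more. The difference between the stretches was not tested.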
